A study of Rattus norvegicus with 20 samples.

Results

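The genes described here encode collagens, matrix glycoproteins and the enzymes that cut or crosslink them, 40 of the 32494 genes counted in cultured rat epithelial cells. They were chosen by symbol. Every collagen, laminin, fibrillin, fibulin, lysyl oxidase, metalloprotease, ADAMTS or similar matrix gene named in the study's supplementary lists of genes called against whisker follicle cells was taken, with 5 collagen and inhibitor genes left out (Col1a1, Col3a1, Col6a3, Col4a4 and Timp3). One of the 2 lists was read here for its first 1997 rows only, in alphabetical order, and its other 4488 rows are not used. The laminins, the lysyl oxidases other than Loxl2, and all metalloproteases of the MMP family other than Mmp24 are therefore not analysed here. The members were 21 collagens, 11 ADAMTS proteases, 3 ADAMTS-like proteins, Mmp24, the proteoglycan Bgn, the fibulins Efemp1 and Efemp2, and the crosslinking enzyme Loxl2.

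All cells came from Sprague-Dawley rats of the green rat line, which carry act-EGFP and express the green fluorescent protein constitutively. Donor ages, as postnatal days, were PN201 for bladder dome cells, PN200 for tracheal and vaginal cells, PN137 for thymic epithelial cells and PN57 for whisker follicle cells. Cells were grown on irradiated mouse 3T3-J2 feeder cells and sorted for EGFP. They were sequenced either in culture before transplantation, or in culture again after they had been transplanted into newborn mouse skin, grafted on nude mice and recovered from the grafts. The 20 samples fall into 10 groups of 2. The whisker cells were clone 7 before and subclone 14 after transplantation, so 1 clone stands for hair follicle cells. Thymic cells were taken from frozen stock, and their labels give both bulk and clone 9 before transplantation and bulk 907 after it. As EGFP is made constitutively, the sort selects rat cells over mouse feeder and host cells, not 1 rat cell type over another. No purity of these sorted cells is given, and reads were aligned to the rat genome alone. RNA from remaining mouse cells was not tested for. Nothing in the labels says that the 2 samples of a group came from separate animals or grafts, so p values measure only the spread between these samples, which may be technical. In bulk RNA, fewer cells of a type and less RNA per cell cannot be told apart. Recovered cells of every tissue had also been through a further round of culture, and the recovered whisker cells were a subclone. A change after transplantation cannot be told apart from a change with either of these.

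The depth was 20723083 to 29824855 gene-assigned reads in a sample. Levels are given as CPM, read counts scaled to the library size and to a scaling factor of each sample (TMM, computed by edgeR). The smallest number taken as a measurement was 3 reads, which correspond to 0.101 to 0.145 CPM before the TMM factor is applied. Of the defining markers that could be matched by name, the epithelial genes Cdh1 and Epcam summed to between 999.6 and 2939 CPM in every sample. A marker could be matched only if it stood in the rows read from the lists of genes called against whisker cells. The matched markers were therefore selected through these same samples, and the levels of the unmatched ones are not known here. Of 10 stromal markers 3 could be matched, Col1a1, Col3a1 and Dcn, and none was at 0 reads in any group. Their sum was 189 to 246 CPM in bladder and 258 to 265 CPM in tracheal cells before transplantation, and 25.0 to 27.5 CPM and 35.5 to 41.2 CPM after it. In vaginal cells the sum was 24.9 to 28.6 CPM before and 21.4 to 24.2 CPM after, in whisker cells 23.2 to 44.9 CPM and 28.7 to 33.2 CPM, and in thymic cells 19.4 to 19.6 CPM and 34.4 to 37.9 CPM. The smooth muscle gene Acta2 was 1.27 to 1.91 CPM in thymic cells before and 15.1 to 16.3 CPM after transplantation. Cd68, of the blood list, rose in bladder cells, with 13.4 to 14.7 CPM before and 52.9 to 55.1 CPM after transplantation, and in tracheal cells, with 11.1 to 12.2 CPM before and 55.2 to 61.9 CPM after. It fell in vaginal cells, with 60.2 to 62.6 CPM before and 14.7 to 16.6 CPM after, and was 25.8 to 29.7 CPM in thymic and 10.0 to 12.7 CPM in whisker cells, where it was not called. The part of cells that carry it in the changes of bladder, tracheal and vaginal cells was not tested. Acan, of the cartilage list, was at most 1.61 CPM. No endothelial marker could be matched.

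Epithelial cells rest on a basement membrane, a sheet built on a network of type IV collagen and laminin. Basal keratinocytes hold on to it through hemidesmosomes, which contain the transmembrane collagen XVII, and anchoring fibrils of collagen VII tie the sheet to the connective tissue beneath. That tissue is mostly made by fibroblasts, as fibrils of collagens I, III and V, beaded filaments of collagen VI, and proteoglycans such as biglycan. ADAMTS proteases trim procollagens and cut proteoglycans, and lysyl oxidases crosslink the fibrils. In skin, hair follicles grow down into this matrix and are enclosed by a basement membrane of their own.

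All 40 members passed the filter of at least 1 CPM in 1 sample. A gene had to be measured to be on the lists at all, and 10 members had at least 1 group below the level of 3 reads. The highest group mean was between 0.896 CPM (Adamts17) and 5145 CPM (Col17a1), at least 10 CPM for 26 members and under 2 CPM for 7. A gene was called when limma's adjusted p was under 0.05 and the fold change at least 2. As listed genes had to differ between tissues, the counts of members that follow are a description. The share of all 13302 tested genes that was called is given beside each.

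After transplantation the matrix genes moved in different directions in the 5 tissues. In bladder cells 27 of the 40 were called, 11 up and 16 down, where 21.1% of all genes were called (10.1% up, 11.0% down). In tracheal cells 18 were called, 2 up and 16 down (12.4% of all genes, 4.39% up and 8.04% down). In vaginal cells 12 were called, 3 up and 9 down (11.8%, 4.25% up and 7.53% down). Thymic cells went mostly the other way, with 19 called, 13 up and 6 down (15.4%, 8.49% up and 6.89% down). In whisker cells 10 members were called, and the direction was down for each of them (5.98%, 2.15% up and 3.83% down). The median change of the members was 0.31 in bladder, -0.82 in tracheal, -0.17 in vaginal, 0.52 in thymic and -0.30 in whisker cells on the log2 scale, with genes at 0 reads in 1 group as fitted, and 0.14, -0.70, -0.11, 0.52 and -0.26 with these genes at their bound.

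**Figure D1:**
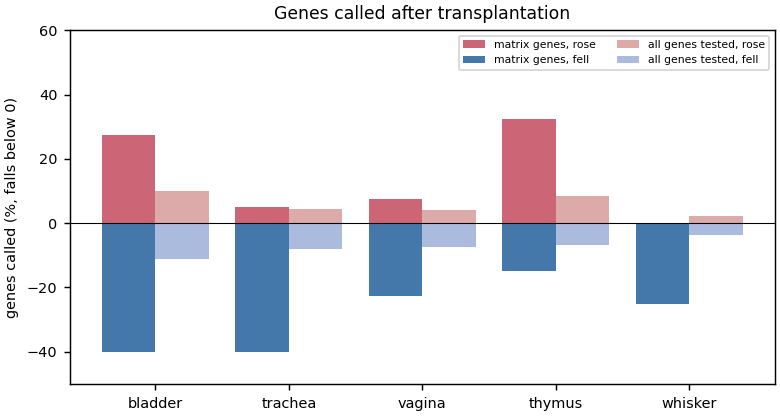
Percent of genes called after transplantation in each tissue of origin, rises above 0 and falls below it. Dark bars are the 40 matrix genes and pale bars all 13302 genes tested. The fall bar of the matrix genes is longer than their rise bar in bladder, trachea, vagina and whisker, and shorter in thymus.

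Of the 40 members, 14 rose in one tissue and fell in another, where 8.38% of all genes did. A further 8 only rose (12.3% of all genes), 15 only fell (14.6%) and 3 (Adamts10, Adamts17 and Col11a2) were called in no tissue (64.8%). Col4a2 was called in all 5 tissues (0.429% of all genes), and no member went the same way in all 5 (0.120%). The change itself differed among the 5 tissues for 39 members by the F test of limma, where 46.3% of all genes did, Adamts17 being the exception. The map of changes for the 40 genes shows Col4a1 and Col4a2 falling in bladder and tracheal cells and rising in vaginal and thymic cells.

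**Figure D2:**
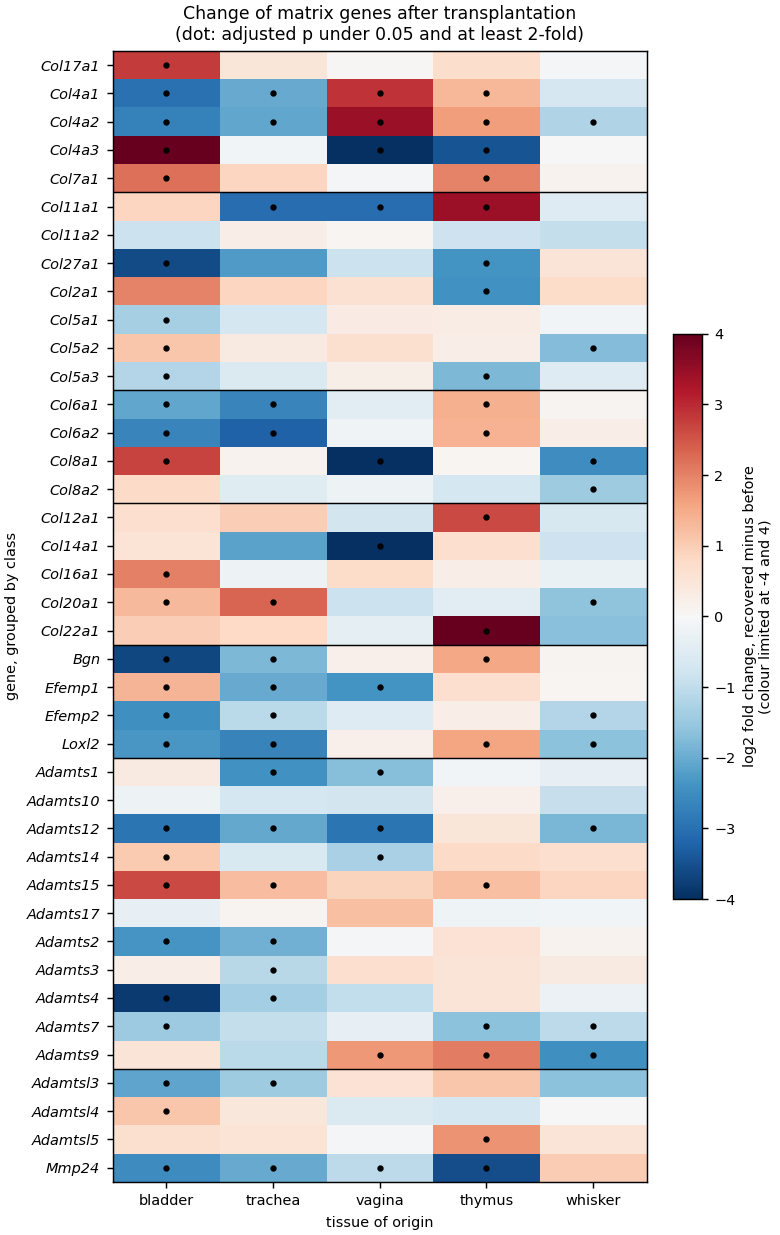
Log2 fold change of each matrix gene (rows, grouped by class) in each tissue of origin (columns), recovered minus before transplantation. The colour is limited at -4 and 4, and a dot marks a called gene. In the block of 5 basement membrane and anchoring collagens at the top, all 5 were called in bladder (21.1% of all genes) and 1 in whisker cells (5.98%).

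Among the collagens that attach epithelium to its bed, Col17a1 and Col7a1 rose in bladder cells, and Col7a1 also in thymic cells. Their upstream sequences are shown because both genes rose together in bladder cells. The 250 bases before each start site are from RefSeq (GRCr8, another assembly than the one the reads were counted on), 5′ to 3′ on the strand of the gene. Capitals mark matches on either strand to 4 motifs, namely the TATA box core TATAAA, the CCAAT box, the GC box core GGGCGG and the AP-1 core TGANTCA. The AP-1 core has no match in either window, and no matches overlap.
Col17a1, chr1:256518858-256519107, minus strand: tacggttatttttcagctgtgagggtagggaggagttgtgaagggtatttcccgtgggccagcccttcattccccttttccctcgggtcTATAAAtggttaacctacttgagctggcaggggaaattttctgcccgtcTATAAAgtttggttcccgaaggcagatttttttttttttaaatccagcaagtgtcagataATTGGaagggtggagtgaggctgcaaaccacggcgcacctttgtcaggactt
Col7a1, chr8:118483114-118483363, plus strand: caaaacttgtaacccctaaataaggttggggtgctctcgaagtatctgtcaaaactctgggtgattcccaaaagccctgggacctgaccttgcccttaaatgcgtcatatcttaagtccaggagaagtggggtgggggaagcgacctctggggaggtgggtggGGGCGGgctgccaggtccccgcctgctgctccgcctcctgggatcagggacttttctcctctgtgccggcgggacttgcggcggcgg
The Col17a1 window held 2 matches to TATAAA and 1 to CCAAT, read on the other strand as ATTGG. The Col7a1 window held 1 match to GGGCGG. Windows were given for 32 of the 40 members. The GC box core was found in 75% of these and in 30.5% of all 33469 windows, the CCAAT box in 34.4% and 34%, the TATA box core in 12.5% and 12.9%, and the AP-1 core in 6.25% and 6.34%. A match describes the letters only.

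Col17a1, the transmembrane collagen of hemidesmosomes, was at 236 and 483 CPM before transplantation and 2323 and 2374 CPM in recovered cells of bladder origin. The recovered samples were both above the earlier ones, and the difference was 2.80 ± 0.20 (SE), adjusted p = 5.4e-09 on the log2 scale. The 2 samples before transplantation lay well apart, and this SE is pooled over all groups, not their spread alone. Whisker cells had the highest level, 5157 and 5133 CPM before and 4856 and 4966 CPM after. Vaginal cells were next, at 3583 and 3514 CPM before and 3616 and 3686 CPM after, followed by thymic cells at 1547 and 1781 CPM before and 2633 and 2797 CPM after and tracheal cells at 714 and 777 CPM before and 1059 and 1009.6 CPM after. None of these 4 tissues passed the 2-fold threshold, although both recovered thymic and both recovered tracheal samples were above those before transplantation. Col7a1, the anchoring fibril collagen, rose in bladder cells from 180.2 and 257 to 1046 and 921 CPM (2.19 ± 0.19 (SE), adjusted p = 5.3e-08) and in thymic cells from 130.2 and 198 to 614 and 665 CPM (1.99 ± 0.19 (SE), adjusted p = 3e-07). In neither tissue did the samples before and after overlap. Tracheal cells went from 517 and 566 to 913 and 1059 CPM, a change of 0.86 that missed the 2-fold threshold. Col7a1 did not pass it among the 4 recovered non-hair tissues either, with a spread of 0.62 between the highest and the lowest mean.

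**Figure D3:**
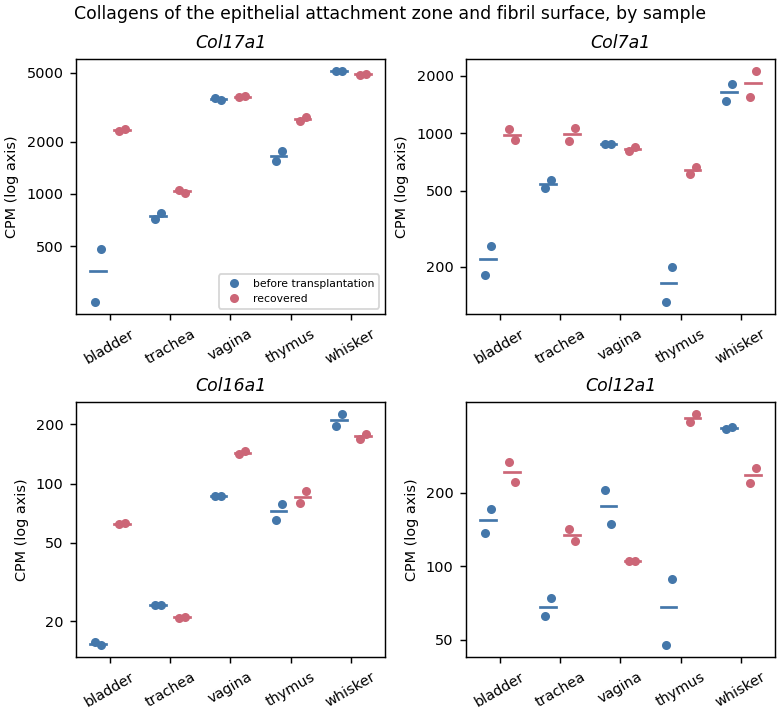
CPM on a log axis of Col17a1, Col7a1, Col16a1 and Col12a1 by tissue of origin. Points are single samples, blue before transplantation and red recovered, and lines are means of 2. In bladder the red points of Col17a1, Col7a1 and Col16a1 lie above the blue ones, and in thymus the same holds for Col7a1 and Col12a1.

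The type IV collagens fell in some tissues and rose in others. Col4a1 and Col4a2 encode the α1 and α2 chains that form the common type IV network, and in RefSeq (GRCr8) they are divergent neighbours, Col4a1 on the plus and Col4a2 on the minus strand, with 76 bases between their annotated starts. That stretch is shown because the pair changed with the same sign in all 5 tissues. It is written 5′ to 3′ on the plus strand, and capitals mark its 1 match to GGGCGG, read on the other strand as CCGCCC.
Col4a1 and Col4a2, chr16:84885521-84885596: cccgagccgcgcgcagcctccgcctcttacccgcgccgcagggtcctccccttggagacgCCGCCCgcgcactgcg
Col4a1 was at 74.1 and 69.4 CPM before transplantation and 8.33 and 9.86 CPM in recovered cells of bladder origin, and fell by 2.98 ± 0.17 (SE, adjusted p = 6.6e-10). In tracheal cells it went from 53.4 and 57.5 to 16.8 and 11.6 CPM (-2.01 ± 0.15 (SE), adjusted p = 4.6e-08). In vaginal cells it rose from 7.15 and 8.24 to 52.3 and 60.8 CPM (2.88 ± 0.18 (SE), adjusted p = 3.8e-09), and in thymic cells from 9.13 and 7.33 to 19.4 and 21.5 CPM (1.32 ± 0.19 (SE), adjusted p = 2.6e-05). Bladder and tracheal samples were above vaginal and thymic samples before transplantation and below them after it, and in each of the 4 tissues the samples before and after did not overlap.

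Col4a2 samples also lay higher in bladder and tracheal than in vaginal and thymic cells before transplantation, and lower after it. It was at 3.94 and 5.40 CPM before transplantation and 48.5 and 52.8 CPM in recovered cells of vaginal origin (3.47 ± 0.20 (SE), adjusted p = 1.5e-09), and at 35.8 and 31.3 CPM before and 5.57 and 4.74 CPM after in bladder cells (-2.71 ± 0.20 (SE), adjusted p = 9.4e-09). Tracheal cells went from 26.1 and 31.3 to 8.31 and 5.73 CPM (-2.07 ± 0.18 (SE), adjusted p = 1.7e-07), thymic cells from 4.64 and 3.89 to 12.1 and 15.2 CPM (1.68 ± 0.22 (SE), adjusted p = 9.8e-06) and whisker cells from 28.2 and 30.8 to 13.7 and 12.2 CPM (-1.19 ± 0.15 (SE), adjusted p = 3.3e-05). In whisker cells Col4a1 changed by -0.67 ± 0.16 (SE), under the threshold. The summed stromal markers given above moved with Col4a1 and Col4a2 in bladder, tracheal and thymic cells, and their part in the result was not tested. In vaginal cells, where the pair rose most, Col1a1 changed by -0.15 ± 0.23 (SE), Col3a1 by -0.39 ± 0.30 (SE) and Dcn by 0.00 ± 0.41 (SE). In the same cells Acta2 was 2.18 to 2.30 CPM before and 0.418 to 0.670 CPM after transplantation, and Cd68 was 60.2 to 62.6 CPM before and 14.7 to 16.6 CPM after it. The part of cells that carry these markers was not tested.

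Col4a3, a chain of the more restricted type IV network of kidney and lung, did not follow the other chains. It was at 9.40 and 8.06 CPM in vaginal cells before transplantation and had 0 reads in both recovered samples, which makes it at least 75.9-fold lower at a floor of 3 reads per library. In bladder cells it rose from 0.261 and 0.0431 to 6.05 and 5.21 CPM, and in thymic cells it fell from 0.794 and 3.11 to 0.255 and 0.0660 CPM. The sizes rest on few reads and on single libraries. The bladder rise was 6.44 without replicate 1 and 4.32 without replicate 2 of the cells before transplantation, and 5.34 with both. The thymic change was -3.45 with all samples and ranged from -4.45 to -2.49 when 1 thymic sample was left out. Whisker cells had 0 reads in all 4 samples.

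**Figure D4:**
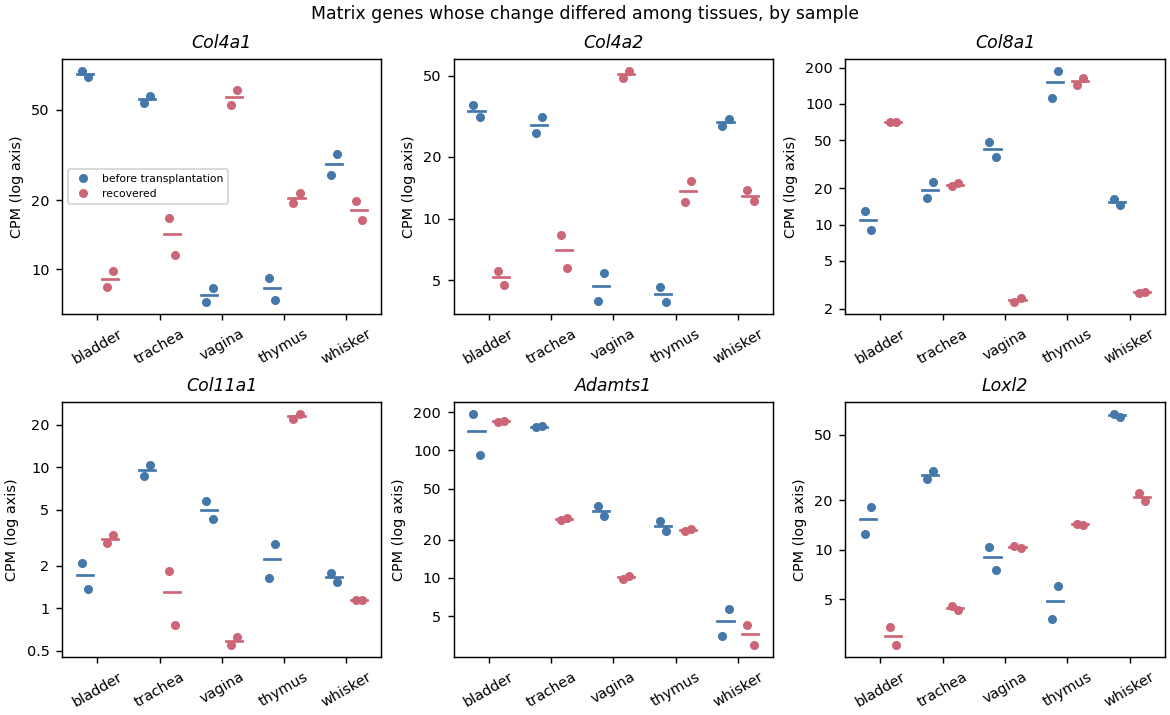
CPM on a log axis of Col4a1, Col4a2, Col8a1, Col11a1, Adamts1 and Loxl2 by tissue of origin. Points are single samples, blue before transplantation and red recovered, and lines are means of 2. Red lies below blue for Col4a1 and Col4a2 in bladder and trachea and above it in vagina and thymus.

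In all, 12 members fell in both bladder and tracheal cells, where 4.79% of all genes did. Of the 12, 6 also rose in thymic cells (0.917% of all genes went these 3 ways), and 8 were not called in vaginal cells (3.01% of all genes fell in bladder and tracheal cells and were not called in vaginal cells). The 12 include 5 genes described together here, which were grouped after their values were seen. They are Col6a1 and Col6a2, which encode chains of the beaded collagen VI filament, Bgn, a small proteoglycan that binds collagen fibrils, Efemp2, a fibulin needed for elastic fibres, and Adamts2, which removes the amino propeptide of fibrillar procollagens. Other collagen and fibulin genes rose in bladder cells, Col5a2 by 1.09 ± 0.09 (SE), Efemp1 by 1.35 ± 0.14 (SE) and Col16a1 by 2.02 ± 0.11 (SE) on the log2 scale. Col6a2 was at 24.2 and 19.4 CPM before transplantation and 3.05 and 3.92 CPM in recovered cells of bladder origin (-2.64 ± 0.27 (SE), adjusted p = 4.8e-07). In tracheal cells it was at 38.5 and 37.6 CPM before and 3.94 and 4.01 CPM after (-3.25 ± 0.24 (SE), adjusted p = 3.8e-08), so that the samples were nearly the same within each state and far apart between them. In thymic cells it rose from 2.46 and 1.86 to 5.31 and 5.94 CPM (1.39 ± 0.34 (SE), adjusted p = 0.0033), still under the bladder level before transplantation.

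Col6a1 moved in parallel, from 27.4 and 19.7 to 5.90 and 5.25 CPM in bladder cells (-2.07 ± 0.32 (SE), adjusted p = 4.2e-05) and from 36.0 and 36.0 to 7.28 and 4.85 CPM in tracheal cells (-2.63 ± 0.30 (SE), adjusted p = 3.9e-06). Its rise in thymic cells, from 3.81 and 2.61 to 8.03 and 8.82 CPM (1.41 ± 0.41 (SE), adjusted p = 0.0091), depended on single samples. It lost its call without thymic replicate 2 before transplantation (1.15, adjusted p = 0.059) and without recovered thymic replicate 2 (1.31, adjusted p = 0.050). Bgn was at 80.6 and 52.0 CPM before transplantation and 5.52 and 4.95 CPM in recovered cells of bladder origin (-3.63 ± 0.36 (SE), adjusted p = 2.7e-07), the largest fall in that tissue among members with at least 10 CPM. Tracheal cells went from 34.1 and 31.1 to 11.0 and 8.17 CPM (-1.799 ± 0.30 (SE), adjusted p = 0.00016) and thymic cells from 3.69 and 2.40 to 9.34 and 8.45 CPM (1.56 ± 0.46 (SE), adjusted p = 0.011), the latter call being lost without thymic replicate 2 before transplantation (1.26, adjusted p = 0.078). In vaginal and whisker cells neither collagen VI gene nor Bgn was called, and the samples before and after overlapped for Col6a1, Col6a2 and Bgn in both tissues.

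Efemp2 fell in bladder cells from 10.5 and 9.83 to 1.67 and 2.02 CPM (-2.45 ± 0.25 (SE), adjusted p = 4.4e-07), in tracheal cells from 6.77 and 6.52 to 3.71 and 2.74 CPM (-1.08 ± 0.21 (SE), adjusted p = 0.00074) and in whisker cells from 1.87 and 3.05 to 0.967 and 1.11 CPM (-1.17 ± 0.35 (SE), adjusted p = 0.021). The tracheal call was lost without recovered tracheal replicate 2 (-0.84). The whisker call was lost without whisker replicate 2 before transplantation (-0.84, adjusted p = 0.16) and without either recovered whisker sample. Adamts2 fell in bladder cells from 3.40 and 3.19 to 0.524 and 0.732 CPM (-2.36 ± 0.39 (SE), adjusted p = 7e-05) and in tracheal cells from 3.61 and 3.82 to 1.08 and 0.875 CPM (-1.93 ± 0.33 (SE), adjusted p = 0.00023), and no other tissue was called. The stromal markers fell in the same 2 tissues. Col1a1 changed by -3.17 ± 0.20 (SE) in bladder and -2.56 ± 0.18 (SE) in tracheal cells, Col3a1 by -2.92 ± 0.25 (SE) and -3.44 ± 0.23 (SE), and Dcn by -1.67 ± 0.32 (SE) and -1.30 ± 0.27 (SE). In thymic cells Col1a1 changed by 0.54 ± 0.22 (SE), Col3a1 by 1.52 ± 0.32 (SE) and Dcn by 1.51 ± 0.38 (SE). Cd68 went the other way in both tissues, up by 1.94 ± 0.11 (SE) in bladder and 2.32 ± 0.11 (SE) in tracheal cells. The part of cells that carry the stromal markers or Cd68 in these results was not tested.

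**Figure D5:**
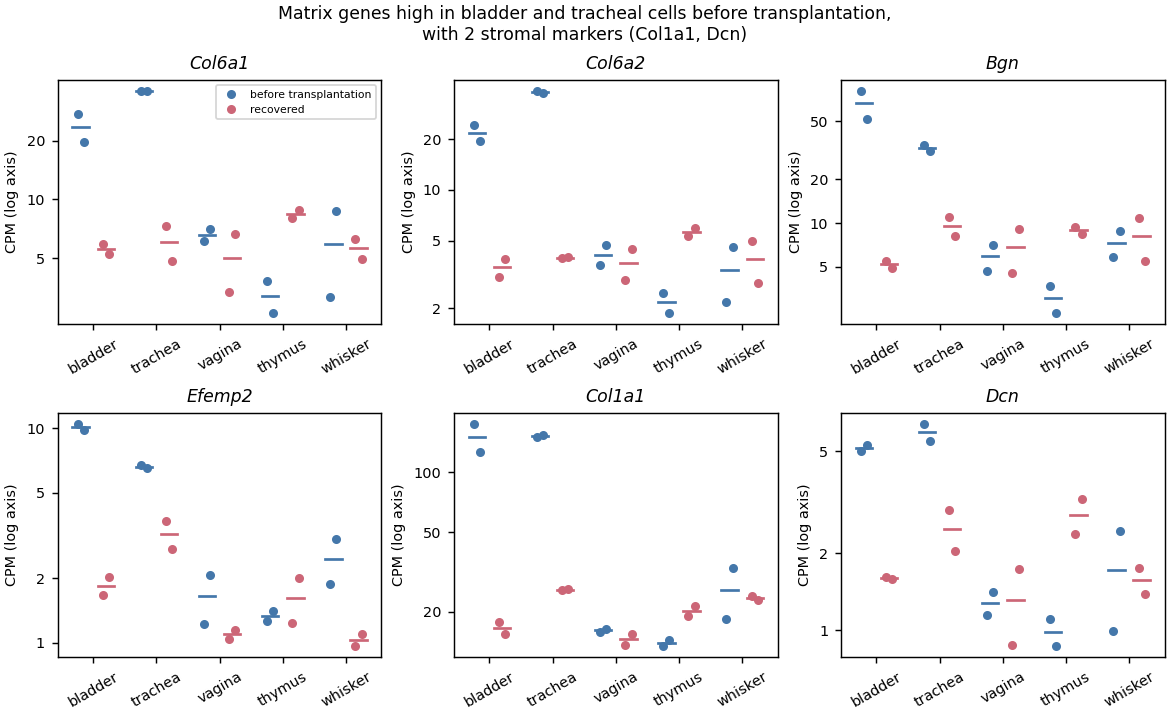
CPM on a log axis of Col6a1, Col6a2, Bgn and Efemp2, with the stromal markers Col1a1 and Dcn, by tissue of origin. Points are single samples, blue before transplantation and red recovered, and lines are means of 2. In all 6 panels the bladder and tracheal blue points are the highest.

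The fibrillar collagens, which build or nucleate the banded fibrils of connective tissue, did not move as 1 class. In bladder cells 4 of 7 were called, 1 up and 3 down (21.1% of all genes), and in thymic cells 4, again 1 up and 3 down (15.4%). Collagen V regulates fibril diameter and has 3 chain genes among the members. Col5a2 rose in bladder cells from 105 and 104 to 218 and 227 CPM (1.09 ± 0.09 (SE), adjusted p = 2.8e-08) and fell in whisker cells from 1092 and 1062 to 295 and 349.6 CPM (-1.75 ± 0.09 (SE), adjusted p = 1.2e-09). Before transplantation whisker cells had more than any other group, and after it they had less than the recovered tracheal, vaginal and thymic cells. Col5a1 fell in bladder cells from 102 and 103 to 43.1 and 38.4 CPM (-1.33 ± 0.12 (SE), adjusted p = 1.2e-07) and was called in no other tissue. Col5a1 and Col5a2 moved in opposite directions in bladder cells. Col5a3 fell in thymic cells from 5.48 and 5.43 to 1.27 and 1.82 CPM (-1.803 ± 0.23 (SE), adjusted p = 1e-05) and in bladder cells from 3.21 and 2.28 to 1.14 and 1.25 CPM (-1.18 ± 0.29 (SE), adjusted p = 0.0022), the bladder call being lost without bladder replicate 1 before transplantation (-0.92).

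Col11a1, a minor fibrillar chain best known from cartilage, was at 1.63 and 2.86 CPM before transplantation and 22.2 and 24.0 CPM in recovered cells of thymic origin (3.42 ± 0.25 (SE), adjusted p = 2e-08), the largest rise there among members with at least 10 CPM. It fell in tracheal cells from 8.61 and 10.4 to 1.83 and 0.766 CPM, a change of -3.04, or -2.35 without recovered tracheal replicate 2, and in vaginal cells from 5.73 and 4.30 to 0.545 and 0.626 CPM. Bladder cells went from 2.09 and 1.38 to 2.90 and 3.31 CPM and whisker cells from 1.79 and 1.55 to 1.15 and 1.15 CPM, neither of them called. Col27a1 fell in bladder cells from 5.34 and 4.96 to 1.00 and 0.172 CPM. The size depended on the recovered sample taken, -2.34 without replicate 2 and -4.75 without replicate 1, against -3.58. Its thymic fall, from 0.833 and 2.20 to 0.297 and 0.198 CPM, lost its call without recovered thymic replicate 2 (adjusted p = 0.079). Col2a1, the main collagen of cartilage, was between 0.0696 and 1.43 CPM in the 20 samples. It fell in thymic cells from 1.43 and 1.20 to 0.595 and 0.0990 CPM, and this call was lost under DESeq2 (adjusted p = 0.074), without thymic replicate 1 before transplantation (adjusted p = 0.060) and without recovered thymic replicate 2 (-1.14). The change was -2.41 with all samples and -3.55 without recovered thymic replicate 1. The Acta2 and stromal marker levels given for thymic cells rose in the same samples as Col11a1, and their part was not tested.

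Collagen VIII forms open hexagonal lattices around vessels and in other basement membranes. Among members with at least 10 CPM in a group, Col8a1 had the widest difference of change, 6.82 on the log2 scale between the tissue with the largest rise and the tissue with the largest fall (F test of limma, adjusted p = 6.9e-08). It rose in bladder cells from 12.9 and 9.05 to 70.3 and 70.5 CPM (2.69 ± 0.25 (SE), adjusted p = 1.4e-07). It fell in vaginal cells from 48.1 and 36.0 to 2.26 and 2.47 CPM (-4.13 ± 0.41 (SE), adjusted p = 8.6e-07) and in whisker cells from 16.2 and 14.4 to 2.72 and 2.78 CPM (-2.47 ± 0.43 (SE), adjusted p = 0.0005). Thymic cells had the highest level in both states, 112 and 188 CPM before and 144 and 163 CPM after, and tracheal cells were at 16.6 and 22.5 CPM before and 20.7 and 22.0 CPM after. Neither was called. Col8a2, which encodes the partner chain, was called only in whisker cells, where it fell from 10.8 and 12.8 to 4.83 and 4.05 CPM (-1.41 ± 0.19 (SE), adjusted p = 4.9e-05). In bladder cells it changed by 0.76 ± 0.31 (SE) and in vaginal cells by -0.20 ± 0.21 (SE), under the threshold in the 2 tissues where Col8a1 moved most.

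Fibril-associated collagens sit on the surface of fibrils and link them to their surroundings. Among the 5 members of this class, the calls in bladder, tracheal and thymic cells were rises (2, 1 and 2 genes). The calls in vaginal and whisker cells, 1 gene in each, were falls. The shares of all genes called in these directions were 10.1%, 4.39% and 8.49% up and 7.53% and 3.83% down, in this order of tissues. The tracheal rise and the whisker fall were both of Col20a1, so no direction of the class is read from these calls. Col16a1, found near basement membranes in skin, rose in bladder cells from 15.8 and 15.1 to 62.2 and 63.0 CPM (2.02 ± 0.11 (SE), adjusted p = 4e-10), with the 2 samples of each state close together. In tracheal cells it was at 24.3 and 24.2 CPM before and 20.9 and 21.1 CPM after, in vaginal cells at 86.4 and 86.2 CPM before and 141 and 146 CPM after, and in whisker cells at 195 and 226 CPM before and 169 and 179 CPM after, the highest of the 5 tissues in each state. Col12a1, which bridges fibrils under tension, rose in thymic cells from 47.4 and 88.3 to 389 and 419.6 CPM (2.65 ± 0.21 (SE), adjusted p = 4.2e-08), and this became the highest of the 10 group means. Col20a1 rose in tracheal cells from 5.84 and 6.36 to 30.7 and 30.6 CPM (2.33 ± 0.31 (SE), adjusted p = 1.7e-05) and in bladder cells from 13.9 and 7.97 to 30.9 and 22.2 CPM, where the call was lost without bladder replicate 2 before transplantation (0.90 against 1.29). It fell in whisker cells from 28.9 and 35.1 to 7.04 and 14.9 CPM (-1.61 ± 0.27 (SE), adjusted p = 0.0004). Col14a1 was at 5.05 and 3.90 CPM in vaginal cells before and 0.126 and 0.0696 CPM after transplantation, and at most 0.132 CPM in every other sample. Col22a1, a collagen of tissue junctions, was at 1.49 and 1.75 CPM in recovered thymic cells and at most 0.374 CPM elsewhere. Its thymic rise of 4.93 was 3.57 without replicate 2 and 6.30 without replicate 1 of the cells before transplantation.

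Loxl2, a copper enzyme that crosslinks collagen and in particular type IV collagen, was at 27.0 and 30.1 CPM before transplantation and 4.55 and 4.34 CPM in recovered cells of tracheal origin (-2.68 ± 0.22 (SE), adjusted p = 9.6e-08). It also fell in bladder cells from 12.5 and 18.2 to 3.38 and 2.63 CPM and in whisker cells from 67.2 and 64.2 to 22.3 and 19.9 CPM (-1.64 ± 0.14 (SE), adjusted p = 4.7e-07), and rose in thymic cells from 3.81 and 6.01 to 14.4 and 14.2 CPM. In vaginal cells, in which Col4a1 and Col4a2 rose, it went from 10.5 and 7.53 to 10.6 and 10.3 CPM, and the change of 0.22 ± 0.20 (SE) was not called. Efemp1, a fibulin of the elastic fibre family, behaved unlike Efemp2. It rose in bladder cells from 5.94 and 6.60 to 15.3 and 16.6 CPM (1.35 ± 0.14 (SE), adjusted p = 6.1e-07), while Efemp2 fell there. It fell in tracheal cells from 1.08 and 1.37 to 0.470 and 0.182 CPM and in vaginal cells from 0.879 and 0.709 to 0.0838 and 0.209 CPM (-2.38 ± 0.53 (SE), adjusted p = 0.0019). The recovered vaginal samples held 2 and 6 reads of it, near the limit of 3 reads. The tracheal change was -2.02, and -1.32 with the call lost (adjusted p = 0.057) without recovered tracheal replicate 2.

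Among the 11 ADAMTS proteases, 6 were called in bladder cells (2 up, 4 down), 6 in tracheal cells (1 up, 5 down), 4 in vaginal cells (1 up, 3 down), 3 in thymic cells (2 up, 1 down) and 3 in whisker cells (0 up, 3 down). Over all genes 21.1%, 12.4%, 11.8%, 15.4% and 5.98% were called in these tissues. Adamts1, which cuts the proteoglycans versican and aggrecan, was at 153 and 155 CPM before transplantation and 28.2 and 29.4 CPM in recovered cells of tracheal origin (-2.41 ± 0.24 (SE), adjusted p = 9.9e-07). In vaginal cells it fell from 36.5 and 30.3 to 9.85 and 10.4 CPM (-1.72 ± 0.31 (SE), adjusted p = 0.00037). Bladder cells stayed high, at 194 and 91.5 CPM before and 169 and 172 CPM after, with the 2 samples before transplantation on either side of the recovered ones. Whisker cells had the lowest level, 3.49 and 5.67 CPM before and 4.28 and 2.95 CPM after. Adamts7 fell in thymic cells from 27.1 and 31.9 to 8.96 and 9.67 CPM (-1.65 ± 0.13 (SE), adjusted p = 3.6e-08), in bladder cells from 7.88 and 5.39 to 2.14 and 2.63 CPM and in whisker cells from 8.27 and 8.90 to 4.05 and 4.26 CPM. The whisker change of -1.04 was -0.99, under 2-fold, without whisker replicate 2 before transplantation.

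The procollagen amino-propeptidases Adamts2, Adamts3 and Adamts14 did not move together. Adamts3 was called in tracheal cells only, where it fell from 9.81 and 11.1 to 4.93 and 4.81 CPM (-1.10 ± 0.17 (SE), adjusted p = 9.3e-05), and was at 12.2 and 12.6 CPM before and 15.9 and 14.2 CPM after in bladder cells, where Adamts2 fell. Adamts14 was at most 1.56 CPM in any sample. Its rise in bladder cells, from 0.485 and 0.388 to 1.00 and 0.861 CPM, and its fall in vaginal cells, from 0.535 and 0.532 to 0.251 and 0.174 CPM, were not called by DESeq2 (adjusted p = 0.11 and 0.10). The bladder call was also lost without bladder replicate 2 before transplantation or recovered replicate 1, and the vaginal call without any 1 of the 4 vaginal samples. Without recovered thymic replicate 1, Adamts14 was called in thymic cells (1.23, adjusted p = 0.041).

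Adamts15, another protease of versican and aggrecan, was the only member that rose in 3 tissues. It went from 0.523 and 0.345 to 3.00 and 2.63 CPM in bladder cells, from 1.23 and 1.73 to 2.86 and 3.94 CPM in tracheal cells and from 0.397 and 0.373 to 0.892 and 0.924 CPM in thymic cells, and its vaginal and whisker changes of 0.88 and 0.85 were under 2-fold. The tracheal call was lost without tracheal replicate 1 before transplantation or recovered tracheal replicate 2, at 0.97 in both fits, and the thymic call without thymic replicate 1 or 2 before transplantation or recovered replicate 2. Adamts12 fell in bladder cells from 1.08 and 1.16 to 0.190 and 0.0861 CPM, in tracheal cells from 1.08 and 1.05 to 0.329 and 0.182 CPM and in whisker cells from 0.748 and 1.03 to 0.184 and 0.287 CPM. It was also called in vaginal cells, at 0.115 and 0.133 CPM before transplantation and 0 reads after it, where both states are at the limit of 3 reads and no fold is given. The whisker call was lost without recovered whisker replicate 1 (-1.55, adjusted p = 0.051). Adamts4, an aggrecan-cutting protease, fell in bladder cells from 2.17 and 2.28 to 0.143 and 0.129 CPM and in tracheal cells from 0.846 and 0.684 to 0.282 and 0.292 CPM. The tracheal call was lost in 3 of the 4 fits without 1 tracheal sample, with adjusted p between 0.089 and 0.11. Adamts9, at most 1.75 CPM in any sample, was at 1.75 and 1.64 CPM before and 0.230 and 0.368 CPM after in whisker cells and fell there. Its rises in vaginal and thymic cells, where it reached at most 0.592 CPM, were not called by DESeq2 (adjusted p = 0.074 and 0.075). They were also lost without vaginal replicate 2 before transplantation or either recovered vaginal sample, and without either thymic sample before transplantation or recovered thymic replicate 2.

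The ADAMTS-like proteins have no protease domain and bind to matrix microfibrils. Adamtsl5 rose in thymic cells from 9.92 and 10.8 to 35.7 and 36.3 CPM (1.796 ± 0.11 (SE), adjusted p = 1.4e-09), the tissue with its lowest level before transplantation. Adamtsl4 rose in bladder cells from 63.7 and 56.8 to 132 and 127 CPM, again the tissue that had been lowest, and was under 2-fold in the other 4. Adamtsl3 fell in bladder and tracheal cells, at most 1.13 CPM in any sample, but neither call was made by DESeq2 (adjusted p = 0.053 and 0.11). The bladder call was lost without recovered bladder replicate 2 and the tracheal call without either recovered tracheal sample. Mmp24, a membrane-bound metalloprotease, was at 30.6 and 31.3 CPM before transplantation and 7.00 and 8.10 CPM in recovered cells of tracheal origin. It fell also in bladder cells from 4.07 and 3.49 to 0.809 and 0.517 CPM, in thymic cells from 1.79 and 2.57 to 0.170 and 0.165 CPM and in vaginal cells from 2.06 and 2.92 to 1.21 and 1.15 CPM, the vaginal call being lost without vaginal replicate 2 before transplantation and without either recovered vaginal sample. Whisker cells had at most 0.138 CPM.

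Which matrix genes separated the 4 non-hair epithelia was asked before and after transplantation, with whisker cells left out. Before transplantation 38 of 40 members differed among bladder, tracheal, vaginal and thymic cells, where 40.3% of all genes did. The highest mean was in bladder cells for 10, in tracheal cells for 11, in vaginal cells for 10 and in thymic cells for 7 of the 38, and the lowest was in thymic cells for 20. The widest spreads among members with at least 10 CPM were those of Bgn (4.43 on the log2 scale, adjusted p = 1.2e-07), Col6a2 (4.13, adjusted p = 7.3e-10), Mmp24 (3.85, adjusted p = 4.1e-11), Col8a1 (3.73, adjusted p = 4.5e-09) and Col6a1 (3.50, adjusted p = 1.6e-07). In recovered cells 26 members differed (35.6% of all genes). Bgn, Col6a1 and Col6a2 were no longer among them, with spreads of 0.84 (adjusted p = 0.2), 0.79 (adjusted p = 0.21) and 0.70 (adjusted p = 0.16). The lowest mean was now in thymic cells for 3 and in vaginal cells for 11 of the 26.

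Other genes kept or gained wide differences among the recovered tissues. Efemp1 had a spread of 6.67 (adjusted p = 1.3e-09), with 15.3 and 16.6 CPM in recovered bladder and 0.0838 and 0.209 CPM in recovered vaginal cells. Col8a1 had a spread of 6.002 (adjusted p = 5.7e-10), highest in thymic and lowest in vaginal cells. Col11a1 had 5.25 (adjusted p = 4.9e-10), with the same order of extremes, Adamts1 4.07 (adjusted p = 1.4e-08), highest in bladder and lowest in vaginal cells, and Col5a3 3.56 (adjusted p = 5.5e-09). Col5a3 was at 15.1 and 13.8 CPM in recovered vaginal cells and 1.14 and 1.25 CPM in recovered bladder cells. Among members with at least 10 CPM in a group, the change after transplantation differed most among the 5 tissues for Col8a1, then for Col11a1 (6.47, adjusted p = 1.6e-08), Col4a2 (6.17, adjusted p = 8.4e-11), Col4a1 (5.86, adjusted p = 5.8e-11) and Bgn (5.19, adjusted p = 6.7e-06).

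Differences from whisker cells of the same round are given as a description only, since the lists that define the genes were made from comparisons with whisker cells. The counts use the same thresholds, limma's adjusted p under 0.05 and 2-fold, as the other comparisons, and because the genes were chosen on such comparisons they are no test of the members and nothing is read from them. Before transplantation 25 members lay past both thresholds in bladder cells (32.0% of all genes), 22 in tracheal (28.3%), 19 in vaginal (18.6%) and 27 in thymic cells (22.9%). After it there were 16 (20.1%), 14 (19.0%), 11 (11.9%) and 18 (16.7%). The median absolute log2 difference from whisker cells went from 2.08 to 1.03 in bladder, 1.58 to 0.82 in tracheal, 0.92 to 0.70 in vaginal and 1.59 to 1.03 in thymic cells. Over all genes it went from 0.61 to 0.41, 0.56 to 0.41, 0.39 to 0.32 and 0.45 to 0.37. Each pair of values uses different whisker samples, and whisker genes also changed, so the shift is not that of the other tissue alone. Col17a1 in bladder cells lay -3.93 ± 0.20 (SE) from whisker cells before and -1.06 ± 0.20 (SE) after transplantation on the log2 scale. Col16a1 in bladder cells lay -3.76 ± 0.11 (SE) and -1.47 ± 0.09 (SE) from them. For Col5a2 the values in bladder cells were -3.37 ± 0.09 (SE) and -0.53 ± 0.09 (SE), with the whisker level itself falling. Adamts1 in bladder cells stayed apart, at 4.92 ± 0.40 (SE) and 5.59 ± 0.44 (SE).

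Of 124 other matrix genes listed as basement membrane, interstitial matrix, protease and inhibitor, assembly or receptor genes, 7 could be paired with an identifier (Dcn, Ecm1, Tgfbi, Plaur, Bmp1, Ddr2 and Dst). These 7 could be named because they are on the same lists of genes called against whisker cells, so their counts are a description too. In bladder cells 2 of the 7 rose and 2 fell (21.1% of all genes called), in tracheal cells 1 rose and 3 fell (12.4%), and in thymic cells 1 rose and 1 fell (15.4%). In vaginal cells the 7 changes lay between -1.14 (Ddr2) and 0.07 (Tgfbi), and in whisker cells between -0.51 (Bmp1) and 0.50 (Plaur). Tgfbi, a secreted protein that binds collagen and integrins, rose in bladder cells from 8.51 and 15.8 to 66.6 and 72.2 CPM (2.60 ± 0.20 (SE), adjusted p = 1.6e-08) and in tracheal cells from 32.3 and 29.5 to 69.7 and 67.4 CPM. Ecm1, a glycoprotein of the dermal-epidermal junction, rose in bladder cells from 299 and 310.3 to 755 and 766 CPM (1.32 ± 0.09 (SE), adjusted p = 2.1e-09). Plaur, the urokinase receptor, fell in thymic cells from 93.9 and 82.5 to 15.1 and 15.7 CPM (-2.51 ± 0.19 (SE), adjusted p = 2.1e-08). Ddr2, a collagen receptor typical of fibroblasts, fell in bladder cells from 4.11 and 2.28 to 0.286 and 0.215 CPM (-3.54 ± 0.59 (SE), adjusted p = 7.4e-05), where the stromal markers fell too, and the part of stromal cells was not tested.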

How the data were processed

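RNA was sequenced from sorted EGFP-positive rat cells with a stranded mRNA kit. The authors trimmed reads with cutadapt 1.8, aligned them to the Rnor 6.0 assembly with STAR 2.5.2b and counted them on Ensembl genes with HTSeq 0.6.1 (versions also in the submitters' processing notes), and they deposited raw read counts per gene for each sample, without normalization. Reads with several alignments were not counted, which lowers genes with near-identical copies. The 5 rows of uncounted reads were left out of library sizes. Reads on no gene were 13.2% to 19.3% and ambiguous reads 0.537% to 1.30% of the total.

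From the counts, TMM scaling and CPM were computed with edgeR 4.0.16, the 13302 genes that reached 1 CPM in any sample were tested, and limma 3.58.1 (voom, R 4.3.3) was fitted with 10 group means, which left 10 residual degrees of freedom. This test is named in the study's methods. Each gene has 1 variance pooled over the 10 groups, so an SE is not the spread of the compared samples alone. The spread between the 2 samples of a group was unequal, with a mean chi-square per gene from 2.48 to 42.9. For groups whose 2 samples lay apart, SE and p values may therefore be too small. Benjamini-Hochberg adjustment was applied per comparison over all genes tested, and a call needed an adjusted p under 0.05 and at least 2-fold. For F tests the fold was that between the highest and the lowest mean or change. Symbols came from the supplementary lists, which pair 2311 identifiers with names. The members, lists and tests were chosen with earlier results of these data known. Full statistics were given, by rule, for the 4 largest called rises and 4 largest called falls in each tissue and the 5 widest called spreads in each F test, among members at or above 10 CPM in both samples of some group, and for genes of the same complex. For other members levels and calls are given, and changes where leaving out a sample moved them. Which samples or tools a call depended on was computed for each called change.

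On simulated counts for the bladder comparison (13302 genes), 200 of 200 changed genes were called in the right direction, with 1 other call. How well genes at low CPM or with a change near 2-fold are called was not tested. Alternatives were edgeR's quasi-likelihood test, DESeq2 1.42.0, DESeq2 size factors, 2 other filters, 4-fold, the replicate number as a block, only the compared samples, another whisker reference, and leaving out each of the 20 samples. Sequences are from RefSeq (GRCr8). Floors cover counting error only. Sequences of proteins were not used here.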

Additional observations from a re-analysis of the deposited data

Results flagged for a closer look

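The change after transplantation differed among the 5 tissues for 39 of the 40 matrix genes by the F test of limma (46.3% of all genes). This count is a description, since the genes were taken from lists called against whisker cells in the same samples. Among members with at least 10 CPM in a group, the difference between the tissue with the largest rise and that with the largest fall was 6.815 on the log2 scale for Col8a1, which rose in bladder and fell in vaginal and whisker cells. It was 6.47 for Col11a1, which rose in thymic and fell in tracheal and vaginal cells. It was 6.175 for Col4a2 and 5.859 for Col4a1, which rose in vaginal and thymic and fell in bladder and tracheal cells, and 5.192 for Bgn, which rose in thymic and fell in bladder and tracheal cells. With 2 samples in each group, which of them is the outlying one cannot be told. Each sample was left out in turn. The thymic change of Bgn was 1.26 without thymic replicate 2 before transplantation, against 1.56. The tracheal change of Col11a1 was -2.35 without recovered tracheal replicate 2, against -3.04.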

How the results depend on the processing

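Of 435 alternative values for the 16 counts of called members, 430 stayed within 1.5 times. With a threshold of 4-fold the counts fell to 11 in tracheal, 8 in thymic and 2 in whisker cells after transplantation and to 17 among the recovered tissues, since fewer genes pass a higher fold. Against whisker cells before transplantation, a comparison given as a description only, 17 members lay past both thresholds in recovered vaginal cells, and 11 against recovered whisker cells. Leaving out 1 sample gave 26 to 28 called members in bladder, 14 to 19 in tracheal, 9 to 12 in vaginal, 14 to 21 in thymic and 8 to 12 in whisker cells. Calls kept in every such fit were 23 of 27, 13 of 18, 9 of 12, 13 of 19 and 7 of 10, and calls made by both edgeR and DESeq2 as well were 25, 17, 10, 17 and 10. Of 2982 alternative values for 107 named results, 2941 kept direction and side of the threshold, 40 lost the call, 1 gained it and 0 changed sign. With the replicate number as a block the bladder count was 28 and the recovered tissues' count 27, and all 107 named results kept their call. The correlation of deviations between same-numbered samples was -0.123 to 0.24 over 45 pairs of groups. Within a tissue 0 of the pairs were over 0.1. Such correlations cannot exclude that same-numbered samples were handled together, and the labels do not say whether they were. Comparing 2 with 2 samples, no exact permutation test could pass the threshold, and 10 members had a group below the level of 3 reads, where changes are limited by depth.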
